A study of Mus musculus with 11 samples.

Results

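The kinetochore is the protein machine that ties a chromosome to the spindle, and the spindle checkpoint delays anaphase until every kinetochore is attached. A set of 39 mouse genes for both was taken by symbol, with 1 transcript each, the one of highest mean over the 7 libraries gated by scatter. They are 39 of the 24064 genes in those libraries. Sorted by textbook role they comprise CENP-A and its loading (4 genes), the inner CENP network (13), the KMN network (9), the checkpoint (5), the Ska complex (3), and a group of corona, motor and cohesion protection proteins (5). All libraries came from haematopoietic stem cells (HSCs) of wild-type C57BL/6 mice, sorted from liver at postnatal day 0 as lineage-negative, Sca1+, cKit+, CD150+ and CD48-. The groups were FSC-A High (4 libraries), FSC-A Low (3 libraries), both gated on forward scatter area, a flow cytometry reading related to cell size, and unfractionated HSCs (4 libraries) with no scatter gate named. Each library was a pool of 100 to 200 cells made by Smart-seq2, which copies whole transcripts from few cells, and no group carried a mutation or a treatment. Library 4 of the unfractionated HSCs stood apart from the other 3, and its values are given both in and out of the means. Whether replicates are separate animals is not in the labels, and p-values therefore reflect the spread between libraries alone, which may be technical.

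Centromeric chromatin is marked by CENP-A, a histone H3 variant that is reloaded once per cell cycle by a dedicated chaperone. The inner CENP proteins sit on it throughout the cycle, and in mitosis they hold the KMN network (the Knl1, Mis12 and Ndc80 complexes), which binds microtubules and recruits the checkpoint kinases. Most blood stem cells in adults divide rarely, while those of the liver around birth include cycling cells, and many kinetochore genes are transcribed late in the cell cycle. Transcription of such genes is known to be restrained outside that window through a promoter element called CHR (cell cycle genes homology region), often found beside CCAAT boxes bound by NF-Y.

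Promoter sequence is shown for 4 genes so that the element can be seen in its place. They are the gene of largest difference between FSC-A High and FSC-A Low in each of 4 role groups, among those with a CHR match. Sgol1 stood before Ska3 in that order and was passed over because its match runs beyond the stretch printed. Each line runs 5′ to 3′ along the gene's own strand from 150 bases before the RefSeq start to 30 after it, on GRCm38.p6. The stretches are chr8:116921590-116921769 (+ strand) for Cenpn, chr2:69206184-69206363 (- strand) for Spc25, chr9:83834539-83834718 (+ strand) for Ttk and chr14:57826134-57826313 (- strand) for Ska3. Capitals mark CHR and CCAAT matches on either strand, so that TTCAAA is TTTGAA and ATTGG is CCAAT read on the opposite strand.
Cenpn: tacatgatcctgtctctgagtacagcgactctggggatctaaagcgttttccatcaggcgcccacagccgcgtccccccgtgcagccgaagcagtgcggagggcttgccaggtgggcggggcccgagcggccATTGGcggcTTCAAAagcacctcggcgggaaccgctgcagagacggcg
Spc25: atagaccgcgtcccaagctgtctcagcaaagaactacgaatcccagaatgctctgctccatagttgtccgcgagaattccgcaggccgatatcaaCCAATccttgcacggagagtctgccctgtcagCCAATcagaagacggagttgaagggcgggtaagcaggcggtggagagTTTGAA
Ttk: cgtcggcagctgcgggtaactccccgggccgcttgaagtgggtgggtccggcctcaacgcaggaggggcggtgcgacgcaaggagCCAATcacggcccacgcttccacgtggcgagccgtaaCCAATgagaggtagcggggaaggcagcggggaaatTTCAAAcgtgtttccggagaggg
Ska3: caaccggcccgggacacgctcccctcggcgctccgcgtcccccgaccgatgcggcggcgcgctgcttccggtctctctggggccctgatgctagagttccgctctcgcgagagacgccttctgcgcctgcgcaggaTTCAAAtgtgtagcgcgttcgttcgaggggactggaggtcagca
In Cenpn the CHR match begins 9 bases before the start, with 1 CCAAT match 18 bases before it. The Spc25 match begins 24 bases after the start, with CCAAT matches 55 and 23 bases before it, and the Ttk match begins 7 bases after, with CCAAT matches 65 and 28 bases before. Ska3 has a CHR match 14 bases before its start and no CCAAT match in the printed stretch. For Cenpn, Ttk and Ska3 the start used lies inside the span of the gene. That span begins at 116921716 for Cenpn and 83834651 for Ttk, and ends at 57826291 for Ska3, on the - strand. The CHR matches before the start in Cenpn and Ska3 thus lie within the gene span. Other starts were not searched.

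RefSeq promoter windows, from 250 bases before to 50 after the start, were available for 35 of the 39 genes, Spc24, Nsl1, Zwilch and Ska1 not being among them. On both strands, CHR was searched as TTTGAA or TTCGAA, and 19 of 35 windows (54.3%) held it, against 19.4% of 27025 windows in the whole table. A CHR match starting within 50 bases of the start was present in 15 of 35 (42.9%), against 5.29% of all windows. CCAAT was present in 25 of 35 (71.4%, against 37.9%), and CHR together with CCAAT in 16 of 35 (45.7%, against 7.70%). The motif of E2F factors, searched as TTTCCCGC, TTTGGCGC, TTTCGCGC or TTTGCCGC, was found in 5 of 35 (14.3%, against 2.32%). By role, CHR matches were found for 4 of 4 genes of CENP-A and its loading, 4 of 13 of the inner network, 3 of 7 of the KMN network, 4 of 5 of the checkpoint, 1 of 2 of Ska and 3 of 4 of the corona group. Of the 35 genes with a window, 29 were called higher in FSC-A High (limma adjusted p below 0.05), against 15.6% of all genes tested. The 19 genes with a CHR match were all among these 29, and 0 of the 6 not called had one. The log2 difference, FSC-A High minus FSC-A Low on log2(RPKM + 1), had a median of 2.55 over those 19 and of 1.33 over the 16 without a match. RPKM is the number of reads per kilobase of transcript, scaled to the library's total. CCAAT was in 21 of the 29 and in 4 of the 6, with medians of 2.19 with it and 2.11 without. E2F was in 4 of the 29 and in 1 of the 6, with medians of 1.86 and 2.20. The 10 genes that rose without a CHR match include Nuf2, Mad2l1 and Cenpk, whose log2 differences were 3.93, 3.02 and 2.77. A match is a description of sequence, and binding was not measured. Calls and medians were not split by motif over all genes tested, so the split among the 35 has no such share beside it. The 27025 windows also include genes that were not tested here. Whether any motif has a part in the difference was not tested.

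**Figure D1:**
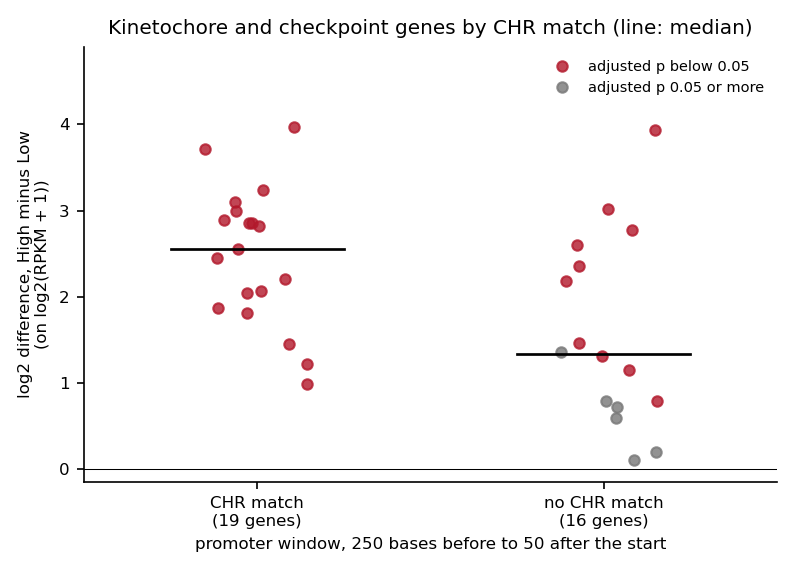
Each point is 1 of 35 genes, placed by whether its promoter window holds a CHR match, with the log2 difference between FSC-A High and FSC-A Low on the vertical axis and a line at the median. The 19 genes with a match lie between 0.98 and 3.97 and all are red (adjusted p below 0.05), and the 6 grey points all lie among the 16 genes without one.

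Kinetochore and checkpoint genes were higher in FSC-A High nearly throughout. Of the 39 genes, 32 rose, 0 fell and 7 did not pass (limma on log2(RPKM + 1), Benjamini-Hochberg adjusted p below 0.05 over 10619 genes tested), against 15.6% of all genes tested that rose and 11.7% that fell. All 39 differences were above 0, so 0 fell at an unadjusted p below 0.05 as well. Genes entered the test with at least 1 RPKM in at least 3 of 7 libraries. Of the 39, 13 were below 1 RPKM in some FSC-A Low library and so passed only with FSC-A High libraries counted. All of these but Cenpi and Zwilch are among the 32 that rose. With no filter, 27 of the 39 rose. The median log2 difference was 2.19, against -0.04 for all genes tested, whose 5th and 95th percentiles were -1.25 and 1.20. In 33 genes every FSC-A High library lay above every FSC-A Low library, as in 18.9% of all genes tested, and the other 6 genes overlapped. A rise of more than 2-fold was called in 30 genes (7.51% of all genes tested) and of more than 4-fold in 22 (1.28%). Among the 100 largest rises of all genes tested were 18 kinetochore or checkpoint genes, which is 18% of that list and 46.2% of the 39. Those 18 include Cenpn, Nuf2, Ttk, Sgol1, Ska1, Bub1b and Cenpf, which passed the filter only with FSC-A High libraries counted. In pools of cells, fewer cells that carry a transcript and less of it per cell cannot be told apart.

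**Figure D2:**
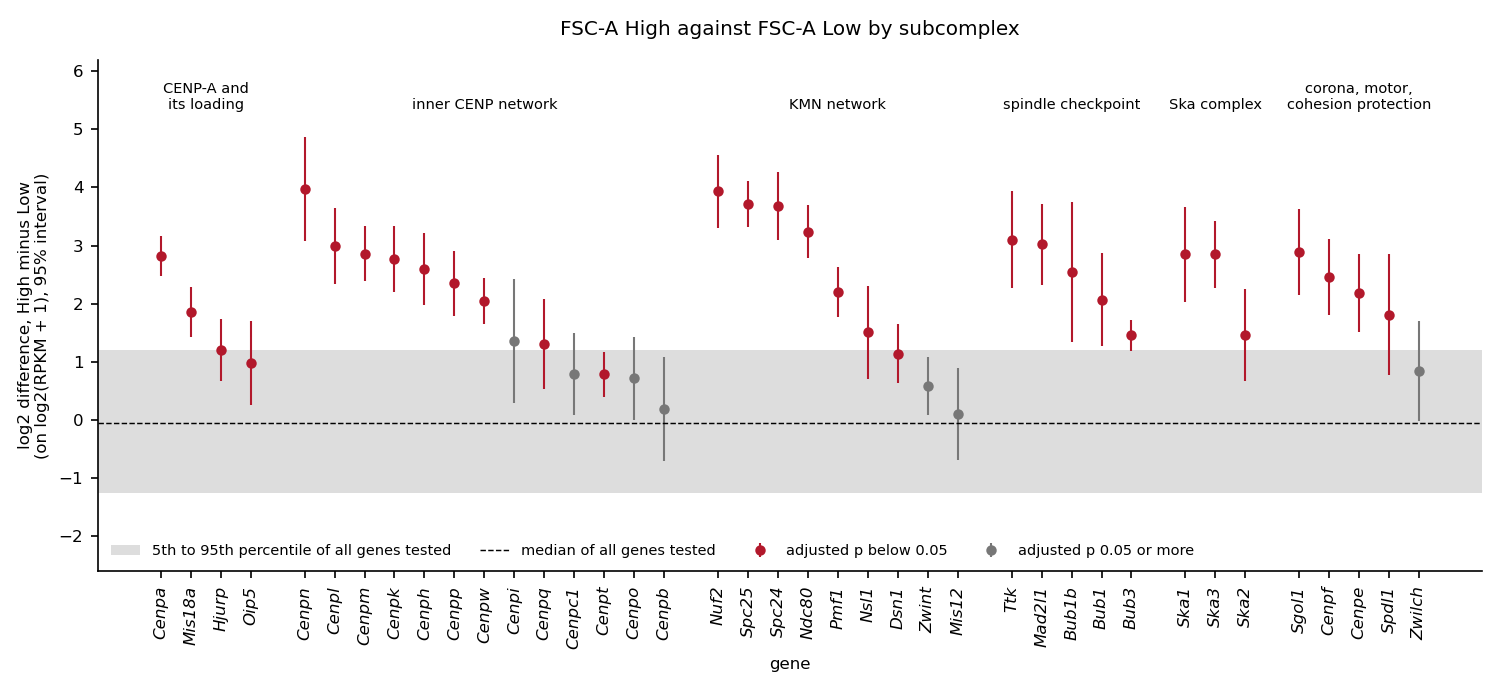
Points give the log2 difference between FSC-A High (4 libraries) and FSC-A Low (3 libraries) for each gene by role group, with 95% intervals from limma. Red points passed at an adjusted p below 0.05, and most lie above the grey band, which runs from -1.25 to 1.20 and holds the middle of all genes tested, while Mis12 and Cenpb lie near its dashed median.

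The libraries of both gates differed in other measures too. The 7 markers of HSC identity were all detected, and their summed level was 180.0 to 275 RPKM in FSC-A High and 374 to 501 RPKM in FSC-A Low, with 4 of 7 lower. Cd48, which the sort excludes, was at 0.0822 to 3.32 against 0.946 to 1.75 RPKM. Summed levels of 6 markers each were 12.1 to 15.96 against 7.39 to 16.7 RPKM for hepatocytes, 12.8 to 28.4 against 15.4 to 25.96 for erythroid cells (nearly all Epor, with Slc4a1 at 0), and 4.66 to 12.1 against 0 to 7.95 for macrophages. They were 69.6 to 103 against 52.3 to 67.01 RPKM for megakaryocytes, without overlap, and 100.4 to 144 against 98.04 to 101 RPKM for myeloid progenitors. None of these 30 genes was called, but many of them lay below the filter on low values and were not tested. Pf4, Gp9, Prtn3 and C1qb, all higher in FSC-A High, had limma adjusted p of 0.0504, 0.0587, 0.0780 and 0.0827. Gp1bb and Itga2b were lower there, with limma adjusted p of 0.221 and 0.271. Lymphoid markers summed to 2.22 to 3.49 against 0.538 to 1.64 RPKM, with Nkg7, the only one of the 6 tested, called higher and Cd3e, Cd3g and Il7r at 0. Estimated depth was 65.9 to 86.1 M reads in FSC-A High and 69.8 to 97.7 M in FSC-A Low, and the deposited values summed over genes to 409143 to 439488 against 333689 to 349628 RPKM. Across genes the log2 difference fell with transcript length (Spearman's rho -0.425 over 10460 genes in these 7 libraries, -0.308 over the 39). The part of these measures in the results below was not tested, beyond the scaling and length alternatives given for single genes.

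**Figure D3:**
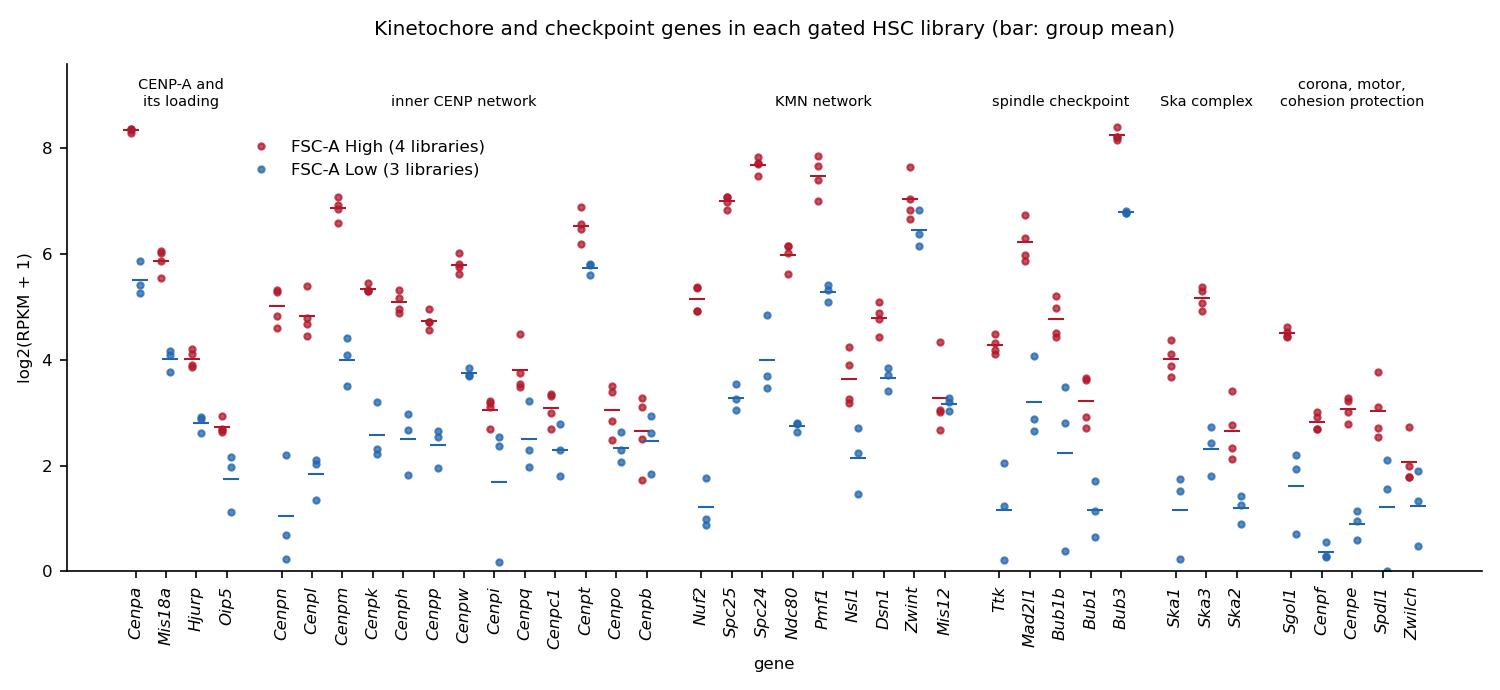
Every gated library is a point, at log2(RPKM + 1) on the vertical axis, with genes grouped by role and ordered by their difference, and a bar at each group's mean. FSC-A High points (red) sit clear of FSC-A Low points (blue) in 33 of 39 genes, and the colours mix in Zwint, Mis12, Cenpb, Cenpo, Cenpc1 and Zwilch.

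All 4 genes of CENP-A and its loading rose, with a median log2 difference of 1.54 (0.98 to 2.82). Cenpa itself (chr5:30666877-30674837, the span of the gene on GRCm38.p6, as for the genes that follow), the CENP-A histone, stood at 327, 326, 324 and 312 RPKM in FSC-A High and at 57.5, 41.7 and 37.3 RPKM in FSC-A Low, with libraries 1 to 4 and 1 to 3 in order throughout. The 4 FSC-A High values span a narrow range and lie far above the highest FSC-A Low value (log2 difference 2.82, SE 0.16, limma adjusted p = 1.66e-07). Mis18a, a subunit of the Mis18 complex that licenses loading, stood at 57.4, 45.9, 65.6 and 63.8 RPKM in FSC-A High and at 15.9, 12.7 and 16.99 RPKM in FSC-A Low. No library overlapped (log2 difference 1.86, SE 0.20, limma adjusted p = 4.43e-05). Hjurp, the chaperone that deposits CENP-A, stood at 17.5, 13.5, 13.99 and 16.3 RPKM in FSC-A High and at 6.39, 6.58 and 5.17 RPKM in FSC-A Low. Its groups were also apart, by less (log2 difference 1.21, SE 0.25, limma adjusted p = 0.00307). Oip5, which encodes the other Mis18 subunit, was the weakest of the 4, at 6.65, 5.17, 5.39 and 5.43 RPKM in FSC-A High and at 2.94, 1.16 and 3.46 RPKM in FSC-A Low (log2 difference 0.98, SE 0.33, limma adjusted p = 0.0442). The Oip5 call did not hold without any 1 of the FSC-A High libraries (adjusted p 0.0718 to 0.0915), without FSC-A Low 1 (0.0579) or FSC-A Low 2 (0.167), with library totals as the scale (0.118), without a filter on low values (0.0880), with transcripts summed (0.0556), or after a spline over length and GC was subtracted in each library (log2 difference 0.32, adjusted p = 0.618). Oip5 shares 172 exon bases, 9.67% of its exons, with Nusap1 on the opposite strand, which stood at 60.1 ± 5.64 (SD, n = 4) against 2.72 ± 0.456 RPKM (SD, n = 3). Reads in the shared bases could not be assigned by strand here, so they may come from either gene. Their part in the Oip5 rise was not tested, and the same limit holds for the overlaps given below.

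Of the 13 inner CENP genes, 9 rose and 4 did not pass, with a median log2 difference of 2.05 (0.19 to 3.97). Cenpn (chr8:116921716-116941504), whose product binds the CENP-A nucleosome, stood at 23.4, 27.4, 37.9 and 38.9 RPKM in FSC-A High and at 3.58, 0.616 and 0.179 RPKM in FSC-A Low. It was nearly undetected in FSC-A Low 2 and 3 (log2 difference 3.97, SE 0.41, limma adjusted p = 3.85e-05). Cenpl, the partner of Cenpn, stood at 26.6, 24.7, 20.9 and 41.3 RPKM in FSC-A High and at 3.32, 3.07 and 1.56 RPKM in FSC-A Low. Its lowest FSC-A High library lay far above its highest FSC-A Low library (log2 difference 3.00, SE 0.30, limma adjusted p = 2.88e-05).

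The CENP-H, -I, -K and -M proteins form 1 subcomplex, and 3 of their 4 genes rose. Cenph stood at 28.7, 30.3, 34.95 and 39.2 RPKM in FSC-A High and at 5.39, 2.55 and 6.86 RPKM in FSC-A Low (log2 difference 2.60, SE 0.29, limma adjusted p = 5.23e-05). Cenpk stood at 38.6, 38.6, 38.97 and 42.7 RPKM in FSC-A High and at 8.18, 3.97 and 3.64 RPKM in FSC-A Low (log2 difference 2.77, SE 0.26, limma adjusted p = 1.67e-05). Cenpm, the most abundant of the inner network in FSC-A High, stood at 135, 120.2, 114 and 95.2 RPKM in FSC-A High and at 15.97, 20.3 and 10.3 RPKM in FSC-A Low (log2 difference 2.86, SE 0.22, limma adjusted p = 2.77e-06). In all 3 genes every FSC-A High library was several times above every FSC-A Low library. Cenpi, the remaining subunit, stood at 8.09, 7.67, 5.45 and 8.29 RPKM in FSC-A High and at 4.85, 0.126 and 4.17 RPKM in FSC-A Low. FSC-A Low 2 is far below the other FSC-A Low libraries there, and although the groups did not overlap the difference did not pass (log2 difference 1.36, SE 0.49, limma adjusted p = 0.0591). Without FSC-A Low 2 it was 0.59, and it passed without FSC-A Low 1 (adjusted p = 0.0279) or FSC-A Low 3 (0.0417).

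The other inner genes divide by level as well as by difference. Cenpw and Cenpt encode histone-fold partners that link DNA to the Ndc80 complex. Cenpw stood at 52.8, 63.6, 54.8 and 48.4 RPKM in FSC-A High and at 11.98, 13.4 and 12.1 RPKM in FSC-A Low, with no overlap (log2 difference 2.05, SE 0.19, limma adjusted p = 1.20e-05). Cenpt was already high in FSC-A Low, at 54.7, 55.3 and 47.9 RPKM, and stood at 71.5, 94.5, 88.01 and 117 RPKM in FSC-A High. Its difference was smaller (log2 difference 0.79, SE 0.18, limma adjusted p = 0.00624) and did not pass with each library scaled to its total of gene values (0.48, adjusted p = 0.0553) or with the trend over expression level removed (0.49, adjusted p = 0.0670). Among the genes of the CENP-O, -P and -Q subcomplex, Cenpp stood at 22.7 to 30.1 RPKM in FSC-A High and 2.88 to 5.29 RPKM in FSC-A Low (log2 difference 2.35, SE 0.26, limma adjusted p = 4.95e-05). Cenpp shares 12.3% of its exon bases with Ippk on the opposite strand, which stood at 10.8 ± 2.18 (SD, n = 4) against 9.99 ± 2.50 RPKM (SD, n = 3). In the Cenpp transcript measured, 317 of 1144 bases (27.7%) match Ippk at 100% identity. Cenpq stood at 10.2, 10.6, 12.4 and 21.4 RPKM in FSC-A High and at 3.91, 2.94 and 8.32 RPKM in FSC-A Low (log2 difference 1.31, SE 0.36, limma adjusted p = 0.0159). Its call did not hold without FSC-A Low 1 (adjusted p = 0.0513), without FSC-A Low 2 (0.0614), without a filter on low values (0.0722), or once the length and GC trend was removed (0.0805).

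The inner genes that did not pass were, beside Cenpi, those of the satellite-binding protein Cenpb, the scaffold Cenpc1, and Cenpo. Cenpb stood at 2.32, 4.68, 7.595 and 8.72 RPKM in FSC-A High and at 5.101, 6.64 and 2.59 RPKM in FSC-A Low, with the groups fully mixed and a 95% interval of the difference from -0.70 to 1.09 (log2 difference 0.19, SE 0.41, limma adjusted p = 0.768). Its sign turned without FSC-A High 4 (-0.015) or FSC-A Low 3 (-0.12) and with library totals as the scale (-0.064). Cenpc1, whose product bridges CENP-A chromatin and the outer kinetochore, stood at 6.99, 5.48, 9.25 and 8.897 RPKM in FSC-A High and at 5.92, 3.92 and 2.501 RPKM in FSC-A Low, where 1 FSC-A High library lies below an FSC-A Low library (log2 difference 0.79, SE 0.33, limma adjusted p = 0.0904). With the trend over expression level removed it passed (0.98, adjusted p = 0.0418). Cenpo stood at 4.57 to 10.3 RPKM in FSC-A High and 3.205 to 5.18 RPKM in FSC-A Low, and these ranges overlap (log2 difference 0.72, SE 0.33, limma adjusted p = 0.1298). It passed with the length and GC trend removed (1.05, adjusted p = 0.0328). Cenpo shares 19% of its exon bases with Adcy3 on the opposite strand, which was at 0.783 ± 0.634 (SD, n = 4) against 1.91 ± 1.49 RPKM (SD, n = 3). In the Cenpo transcript measured, 924 of 4348 bases (21.3%) match Adcy3 at 100% identity.

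Of the 9 KMN genes, 7 rose and 2 did not pass, with a median log2 difference of 2.20 (0.10 to 3.93). The Ndc80 complex, a rod whose Ndc80 and Nuf2 heads grip the microtubule and whose Spc24 and Spc25 end sits on the kinetochore, had differences of 3.24, 3.93, 3.68 and 3.71 for its 4 genes. Nuf2 (chr1:169497934-169531464) stood at 29.4, 29.2, 39.8 and 40.5 RPKM in FSC-A High and at 2.41, 0.995 and 0.827 RPKM in FSC-A Low, a ratio of group means of 24.6-fold, or 38.1-fold without FSC-A Low 1 (log2 difference 3.93, SE 0.29, limma adjusted p = 2.03e-06). Ndc80 (chr17:71496100-71526857) stood at 69.95, 48.05, 70.5 and 64.3 RPKM in FSC-A High and at 5.93, 5.24 and 5.99 RPKM in FSC-A Low. Its FSC-A Low libraries lie close together, and every FSC-A High library was many times higher (log2 difference 3.24, SE 0.21, limma adjusted p = 4.94e-07). Spc24 stood at 211, 207, 226 and 176 RPKM in FSC-A High and at 10.1, 11.95 and 27.6 RPKM in FSC-A Low, and FSC-A Low 3 was the highest of its group (log2 difference 3.68, SE 0.27, limma adjusted p = 1.69e-06). Spc25 stood at 133, 113, 125 and 135 RPKM in FSC-A High and at 8.597, 7.28 and 10.6 RPKM in FSC-A Low, with both groups tight (log2 difference 3.71, SE 0.18, limma adjusted p = 6.88e-08).

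Of the 4 genes of the Mis12 complex, the platform between the inner kinetochore and Ndc80, 3 rose and Mis12 itself did not pass. Pmf1 stood at 127, 168, 202 and 230.3 RPKM in FSC-A High and at 33.1, 38.96 and 41.5 RPKM in FSC-A Low (log2 difference 2.20, SE 0.20, limma adjusted p = 1.13e-05). Dsn1 stood at 33.01, 20.5, 26.2 and 28.5 RPKM in FSC-A High and at 12.1, 13.3 and 9.56 RPKM in FSC-A Low, apart by 2.33-fold in group means (log2 difference 1.14, SE 0.23, limma adjusted p = 0.00305). Nsl1 stood at 8.07, 13.9, 8.53 and 17.9 RPKM in FSC-A High and at 5.56, 1.76 and 3.698 RPKM in FSC-A Low (log2 difference 1.51, SE 0.37, limma adjusted p = 0.00943), and without a filter on low values its adjusted p was 0.0546. Mis12 stood at 7.097, 7.33, 5.34 and 19.2 RPKM in FSC-A High and at 7.21, 8.15 and 8.66 RPKM in FSC-A Low, where 1 library, FSC-A High 4, is above all others and the remaining FSC-A High libraries lie within or below the FSC-A Low range. Its log2 difference was 0.10 (95% interval -0.69 to 0.90, limma adjusted p = 0.866), -0.25 without FSC-A High 4 and -0.18 with library totals as the scale. Mis12 shares 231 exon bases, 7.69% of its exons, with Derl2 on the opposite strand. Derl2 stood at 10.8 ± 2.95 (SD, n = 4) against 9.65 ± 2.57 RPKM (SD, n = 3), and the part of shared reads was not tested. Zwint, a partner of Knl1 that recruits corona proteins, stood at 100.3, 113, 130.4 and 198 RPKM in FSC-A High and at 113, 70.5 and 81.9 RPKM in FSC-A Low. In FSC-A Low it came next after Bub3 in abundance, its groups overlapped, and its difference did not pass (log2 difference 0.59, SE 0.23, limma adjusted p = 0.0744). It passed without FSC-A High 1 (adjusted p = 0.0391) or FSC-A Low 1 (0.0382), at log2 differences of 0.71 and 0.78, and with library totals as the scale it was 0.28.

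All 5 checkpoint genes rose, with a median log2 difference of 2.55 (1.46 to 3.10) and no overlap in any. Ttk (chr9:83834651-83872390) encodes Mps1, the kinase that starts the signal at unattached kinetochores. It stood at 17.1, 16.3, 21.3 and 18.9 RPKM in FSC-A High and at 3.15, 1.35 and 0.158 RPKM in FSC-A Low (log2 difference 3.10, SE 0.39, limma adjusted p = 1.16e-04). Bub1, the kinase recruited next, stood at 11.7, 5.58, 6.52 and 11.3 RPKM in FSC-A High and at 2.25, 0.571 and 1.203 RPKM in FSC-A Low, low in both groups (log2 difference 2.07, SE 0.37, limma adjusted p = 0.00137). Mad2l1 encodes Mad2, the protein that is converted at kinetochores into the inhibitor of the anaphase-promoting complex. It stood at 62.5, 57.4, 77.98 and 105 RPKM in FSC-A High and at 15.8, 5.31 and 6.36 RPKM in FSC-A Low (log2 difference 3.02, SE 0.32, limma adjusted p = 4.31e-05). FSC-A Low 1 was the highest of its group, yet far below every FSC-A High library. A predicted gene, Gm42430, matches 26.3% of the Mad2l1 transcript at 95.4% identity, so some of those reads are uncertain.

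The remaining checkpoint genes encode BubR1 and its partner. Bub1b, which encodes BubR1, stood at 21.7, 20.4, 30.7 and 35.7 RPKM in FSC-A High and at 10.3, 0.311 and 5.98 RPKM in FSC-A Low. The FSC-A Low libraries differ greatly among themselves, and the standard error is the largest of the 39 (log2 difference 2.55, SE 0.56, limma adjusted p = 0.00484). Without FSC-A Low 2 the Bub1b difference was 1.63, still past the threshold, and without a filter on low values its adjusted p was 0.0663. Bub3, which binds both Bub1 and BubR1, stood at 296, 296, 283 and 338 RPKM in FSC-A High and at 108, 112 and 109 RPKM in FSC-A Low. It was the most abundant of the 39 genes in FSC-A Low and varied least there in proportion to its mean. Its log2 difference of 1.46 was the smallest of the 5, with an SE of 0.12 (limma adjusted p = 6.61e-06).

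The 3 genes of the Ska complex, which keeps kinetochores on the ends of shortening microtubules, rose with a median log2 difference of 2.85. Ska3 stood at 40.8, 29.4, 32.5 and 38.6 RPKM in FSC-A High and at 2.496, 5.62 and 4.399 RPKM in FSC-A Low (log2 difference 2.85, SE 0.27, limma adjusted p = 1.59e-05). Ska1 stood at 19.7, 11.8, 16.4 and 13.7 RPKM in FSC-A High and at 1.85, 0.168 and 2.37 RPKM in FSC-A Low, and FSC-A Low 2 was near 0 (log2 difference 2.85, SE 0.38, limma adjusted p = 1.94e-04). Ska2 was much lower than its partners in FSC-A High, at 3.38, 4.02, 5.82 and 9.64 RPKM, and stood at 1.68, 0.868 and 1.399 RPKM in FSC-A Low (log2 difference 1.46, SE 0.37, limma adjusted p = 0.0101). Ska2 shares 10.1% of its exon bases with the antisense gene Gm11491.

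In the corona, motor and cohesion group 4 of 5 genes rose and 1 did not pass, with a median log2 difference of 2.19 (0.84 to 2.89). Sgol1 (chr17:53674786-53691331) encodes shugoshin, which protects centromeric cohesion until anaphase. It stood at 20.9, 22.1, 23.6 and 20.5 RPKM in FSC-A High and at 2.83, 3.604 and 0.635 RPKM in FSC-A Low, with FSC-A High libraries nearly alike (log2 difference 2.89, SE 0.34, limma adjusted p = 8.92e-05). Cenpe, a kinesin motor that moves chromosomes to the plate, stood at 7.11, 8.31, 5.89 and 8.68 RPKM in FSC-A High and at 0.921, 1.199 and 0.502 RPKM in FSC-A Low (log2 difference 2.19, SE 0.31, limma adjusted p = 2.98e-04). Cenpf, a large corona protein, stood at 5.44, 7.101, 5.45 and 6.51 RPKM in FSC-A High and at 0.222, 0.212 and 0.464 RPKM in FSC-A Low (log2 difference 2.45, SE 0.30, limma adjusted p = 1.09e-04). It was the only one of the 39 with no FSC-A Low library at 1 RPKM. Spdl1 encodes Spindly, the dynein adaptor of the corona, and stood at 4.84, 7.62, 5.56 and 12.6 RPKM in FSC-A High and at 1.94, 3.29 and 0 RPKM in FSC-A Low (log2 difference 1.81, SE 0.48, limma adjusted p = 0.0135). Without FSC-A Low 3 the Spdl1 difference was 1.20 (adjusted p = 0.0496), and without a filter on low values it did not pass (0.0895). Zwilch, a subunit of the Rod-Zw10-Zwilch complex, stood at 2.99, 2.43, 2.46 and 5.604 RPKM in FSC-A High and at 2.73, 1.504 and 0.388 RPKM in FSC-A Low, with overlap and no call (log2 difference 0.84, SE 0.40, limma adjusted p = 0.1395). Without FSC-A Low 3 the Zwilch difference was 0.46 (adjusted p = 0.441).

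All 39 genes passed the filter of at least 1 RPKM in at least 3 of 7 libraries. Of them, 26 had all 3 FSC-A Low libraries at 1 RPKM or more. The other 13 did not, and passed only with FSC-A High libraries counted. Differences of low genes depend on the pseudocount. With 5 in place of 1, 11 of the 32 rises shrank by over 1.5 times on the log2 scale, among them Cenpn (2.53), Ttk (1.86), Sgol1 (1.89), Ska1 (1.66), Bub1 (1.10), Cenpe (1.09) and Cenpf (1.07), and the 33 calls then made include Cenpi. The coefficient of variation between libraries had a median of 18.02% over the genes in FSC-A High, against 41.8% in FSC-A Low, and was larger in FSC-A Low for 27 of 39 genes. FSC-A High 4 was the highest of its group in 22 genes, and FSC-A High 2 and 1 were the lowest in 15 and 14. In FSC-A Low, library 1 was the highest in 15 genes and libraries 3 and 2 were the lowest in 17 and 16.

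By role group, the median gene level per library, in log2(RPKM + 1), never overlapped between FSC-A High and FSC-A Low. For the KMN network it was 5.62 to 6.16 in FSC-A High and 3.19 to 3.40 in FSC-A Low, the widest gap. For the checkpoint it was 4.42 to 5.20 against 1.23 to 3.49, where FSC-A Low 2 was the lowest and FSC-A Low 1 the highest. For CENP-A and its loading it was 4.71 to 5.06 against 3.35 to 3.48, and for the inner network 4.61 to 5.32 against 2.30 to 2.61. Ska stood at 3.68 to 4.37 against 0.90 to 1.75, and the corona group, the lowest in FSC-A High, at 2.69 to 3.27 against 0.55 to 1.55.

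RPKM is per transcript length, so levels were set side by side between genes. This comparison is rough, given the trend with length, the shared bases and the use of 1 transcript per gene. In FSC-A High the order ran from Cenpa (322 ± 6.98 RPKM, SD, n = 4), Bub3 (303 ± 23.9), Spc24 (205 ± 20.9) and Pmf1 (182 ± 44.8) down to Zwilch (3.37 ± 1.51). In FSC-A Low it ran from Bub3 (109.7 ± 1.68 RPKM, SD, n = 3), Zwint (88.5 ± 22.05), Cenpt (52.6 ± 4.13) and Cenpa (45.5 ± 10.6) down to Cenpf (0.2995 ± 0.142). Nuf2 was 15th of 39 in FSC-A High and 35th in FSC-A Low, while Mis12 was 28th and 13th. Neighbours in the order kept their places in every library for 8 of 38 pairs in FSC-A High and 5 of 38 in FSC-A Low, so most neighbours do not differ beyond their spread. Across the 39 genes, Spearman's rho between the orders of the 2 group means was 0.759, a description of genes that share their libraries.

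Genes for proteins that act together at the centromere, the kinetochore or in the checkpoint, in 1 complex or in steps of 1 process, were compared in pairs by the log2 ratio within each library, which asks whether both genes differed by the same amount. With 4 against 3 libraries the smallest p this test can give is 0.0286, and after adjustment over 8 pairs none passed 0.05. At that floor a pair could pass only if most of the 8 pairs were there too, so the adjusted values decide little. Each difference also restates the gap between the log2 differences of the 2 genes given above, and is no separate evidence. Cenpa over Cenpb was 5.68 ± 0.72 (mean ± SD of log2 ratios) in FSC-A High, against 3.05 ± 0.50 in FSC-A Low, a difference of 2.63 (two-sided exact permutation p = 0.0286, 0.0571 adjusted over 8 pairs). Mad2l1 over Bub3 was -2.02 ± 0.32 and -3.59 ± 0.78, a difference of 1.57 (two-sided exact permutation p = 0.0286, 0.0571 adjusted over 8 pairs). Cenpw over Cenpt was -0.73 ± 0.36 and -1.99 ± 0.11, a difference of 1.26 (two-sided exact permutation p = 0.0286, 0.0571 adjusted over 8 pairs). For Hjurp over Mis18a the ratio was lower in FSC-A High, at -1.85 ± 0.23 and -1.20 ± 0.34, a difference of -0.65 (two-sided exact permutation p = 0.0286, 0.0571 adjusted over 8 pairs). In these 4 pairs no library of one group overlapped the other.

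The remaining 4 pairs overlapped. Spc24 over Spc25 was 0.69 ± 0.22 and 0.72 ± 0.55, a difference of -0.03 (two-sided exact permutation p = 0.943, 0.943 adjusted over 8 pairs). Ndc80 over Nuf2 was 0.85 ± 0.26 and 1.54 ± 0.47, a difference of -0.69 (two-sided exact permutation p = 0.0857, 0.114 adjusted over 8 pairs), and with a pseudocount of 5 the difference was 0.028. Ska1 over Ska2 was 1.35 ± 0.72 and -0.03 ± 0.59, a difference of 1.39 (two-sided exact permutation p = 0.0857, 0.114 adjusted over 8 pairs). Bub1b over Bub3 was -3.47 ± 0.33 and -4.56 ± 1.65, a difference of 1.09 (two-sided exact permutation p = 0.143, 0.163 adjusted over 8 pairs), its FSC-A Low spread coming with a value of -6.42 in FSC-A Low 2.

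**Figure D4:**
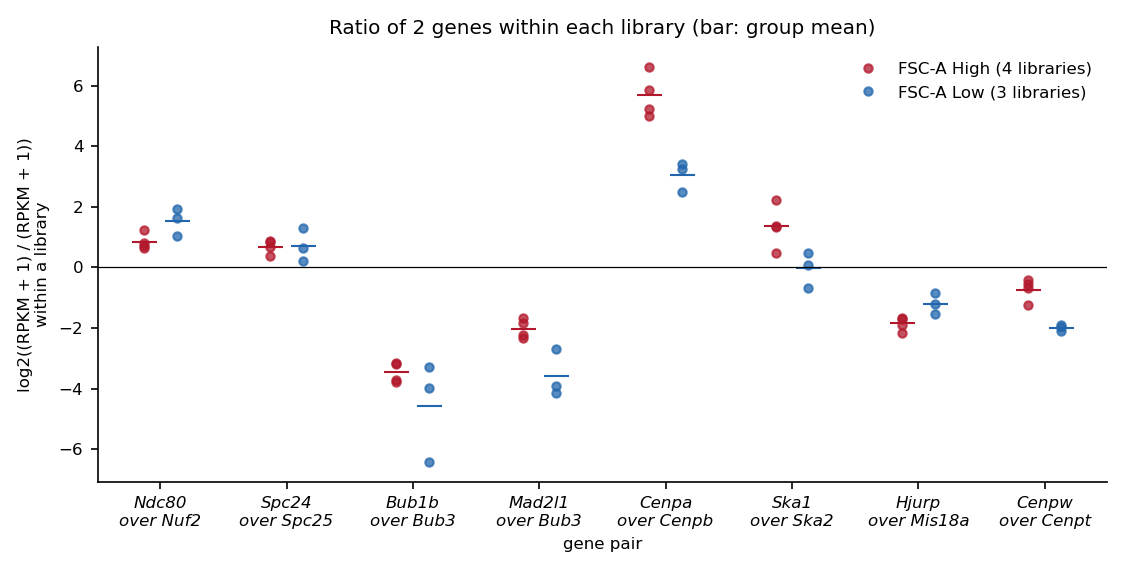
The vertical axis is the log2 ratio of 2 genes of a pair, each as RPKM + 1, within a library, with 4 FSC-A High points (red), 3 FSC-A Low points (blue) and bars at group means. Cenpa over Cenpb, Mad2l1 over Bub3, Cenpw over Cenpt and Hjurp over Mis18a show no overlap between colours, whereas Spc24 over Spc25 has nearly equal means, 0.69 and 0.72.

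A further 24 genes of the same structures and of kinetochore regulation were counted beside the 39. Of these, 14 rose, 2 fell and 8 did not pass, with a median log2 difference of 0.83, against 15.6% and 11.7% of all genes tested that rose and fell. Cenps, a histone-fold partner of Cenpt and Cenpw, averaged 105 ± 13.9 RPKM over FSC-A High libraries (SD, n = 4), against 23.7 ± 6.43 RPKM over FSC-A Low (SD, n = 3) (log2 difference 2.12, SE 0.20, limma adjusted p = 1.99e-05). Knstrn, which encodes a spindle and kinetochore protein named kinastrin, stood at 44.7 ± 7.07 against 4.78 ± 2.74 RPKM (log2 difference 3.08, SE 0.31, limma adjusted p = 2.70e-05). The genes that fell were Clasp2, which encodes a microtubule-stabilising protein also active in interphase, at 5.34 ± 2.03 against 40.6 ± 4.18 RPKM (log2 difference -2.76, SE 0.28, limma adjusted p = 3.21e-05), and Ndel1, a dynein regulator, at 40.6 ± 9.06 against 76.4 ± 13.5 RPKM (log2 difference -0.90, SE 0.20, limma adjusted p = 0.00586). The Clasp2 values are those of 1 of its 8 transcripts, the one of highest mean over the gated libraries, and the others are not given. Zw10, the partner of Zwilch, stood at 18.2 ± 2.26 against 11.6 ± 3.51 RPKM and did not pass (log2 difference 0.64, SE 0.26, limma adjusted p = 0.0804).

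Unfractionated HSCs come in another unit and were not compared with the gated libraries by a test. Their whole reads, 30889443, 21307178, 27206879 and 29952311 in libraries 1 to 4, were scaled to library totals as CPM and divided by the length of the same transcripts, giving CPM per kilobase. Of the 39 genes, 20 had a mean above 20 (17 to 23 with any 1 library left out). Bub3 stood highest, at 142 ± 65.9 (SD, n = 4), followed by Pmf1 at 142 ± 55.4 and Cenpa at 139 ± 77.3. Hjurp was the lowest, at 0.8899 ± 0.638, although it was 25th of 39 in FSC-A High and 14th in FSC-A Low. The order of the 39 gave a Spearman's rho of 0.846 with the FSC-A High order and 0.719 with the FSC-A Low order, descriptions over genes measured in different units. Without library 4 these were 0.849 and 0.685, and Cenpa came before Bub3 and Pmf1. Only 1 of 38 neighbouring pairs kept its order in every library.

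Library 4 of the unfractionated HSCs stood apart. It was the lowest of the 4 in 25 of 39 kinetochore and checkpoint genes and the highest in 0, whereas over 10141 genes with at least 5 CPM it was the lowest in 39.4% and the highest in 28.3%. Its median log2 difference from the mean of the others was -0.92 over the 39 genes and -0.12 over all of those. In CPM per kilobase, Cenpa was at 187, 181, 166 and 24.3, Spc25 at 75.1, 62.5, 98.4 and 12.8 and Nuf2 at 17.3, 16.1, 32.7 and 2.62 in libraries 1 to 4. Each was several times lower in library 4. In some genes it held very few reads. In the 4 libraries Cenpn had 1103, 934, 1849 and 3 reads, Ttk 1412, 997, 2159 and 3, Sgol1 1332, 981, 1385 and 5, and Bub1 824, 621, 987 and 23. All 5 checkpoint genes were lowest there, as were 7 of 9 KMN genes, 7 of 13 inner genes, 3 of 5 of the corona group, 2 of 4 of CENP-A and its loading, and 1 of 3 Ska genes. In other genes library 4 lay within the range of the other 3, among them Zwint at 72.9, 95.2, 83.8 and 73.3, Cenpt at 71.3, 58.4, 61.1 and 65.6, Cenpl at 27.3, 32.5, 34.5 and 28.6 and Ska3 at 17.6, 15.2, 21.5 and 15.9.

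Without library 4 the mean of Cenpa was 178 ± 10.9 (SD, n = 3), that of Spc25 78.7 ± 18.2, and that of Bub3 175 ± 15.4. Library 4 also gave 15.2% of its reads to Rn45s, the ribosomal RNA precursor entry, against 3.06% to 5.26% in the others, and had reads in 11384 genes against 12909 to 13368. Its Spearman's rho with the others over genes was 0.923 to 0.924, against 0.953 to 0.956 among them. The part of these measures in its low kinetochore values was not tested. Across the 39 genes, the log2 deviation of library 4 from the others gave a rho of -0.496 with the FSC-A High minus FSC-A Low difference, and that of library 3, the highest of the 4 in 23 genes, gave 0.618. Libraries 1 and 2 gave 0.202 and 0.294. Over the 8748 genes in both sets of files the values for libraries 1 to 4 were -0.247, 0.2502, 0.243 and -0.158. All of these values share libraries and transcripts and are given as descriptions.

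**Figure D5:**
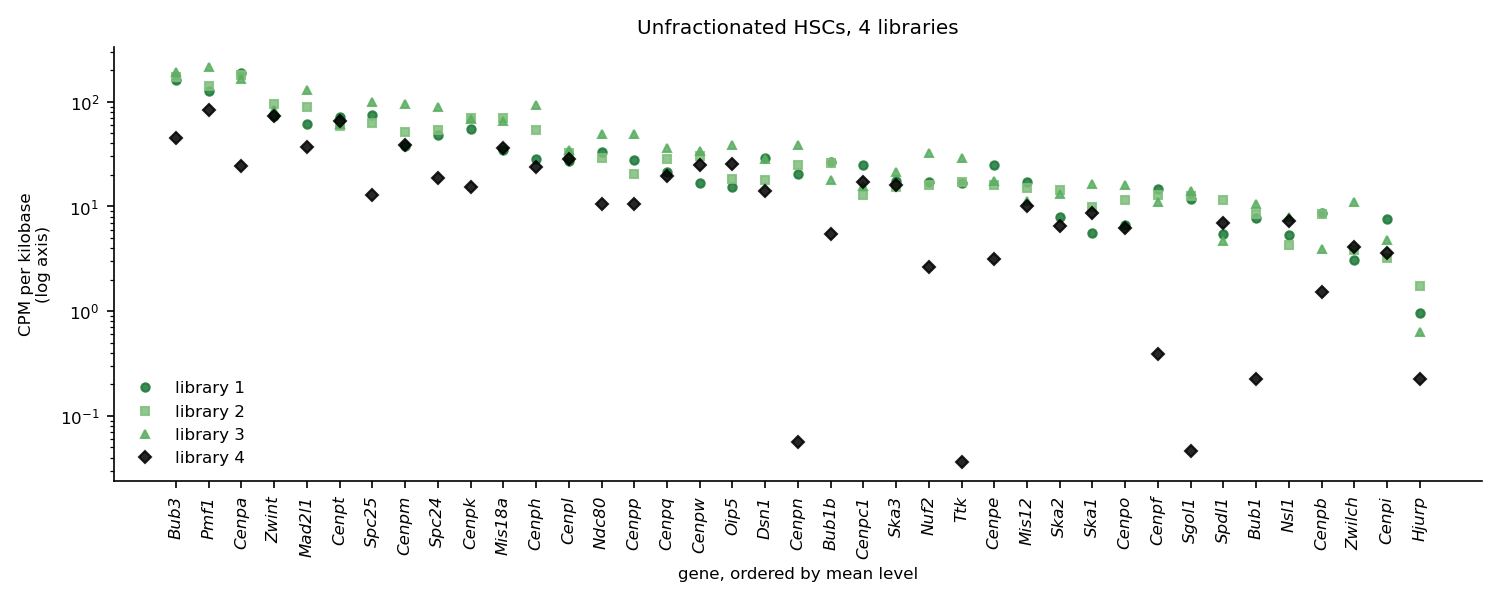
Levels of the 39 genes in the 4 unfractionated libraries, in CPM per kilobase on a log axis, with genes ordered by mean. Library 4 (black diamonds) lies below the green symbols in 25 genes, and Cenpn, Ttk and Sgol1 fall to 3, 3 and 5 reads.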

How the data were processed

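RNA of 11 libraries was measured. Per the labels' protocols, 100 to 200 sorted cells were made into Smart-seq2 libraries, and STAR, DESeq2 and mm10 appear in the submitters' processing notes with no versions or roles. The 7 gated libraries were deposited by the authors as values per RefSeq transcript, taken here as RPKM: no label or header names the unit, and value times transcript length in kilobases sums to 1.02 M to 1.03 M per library. FPKM would look the same, and depth was estimated from the step between low values. The 4 unfractionated libraries were deposited by the authors as a signal per gene symbol (23420 genes) that became whole reads for 100% of values, within 0.01, when multiplied by 1 factor per library. These reads were scaled to CPM by library total and divided by transcript length. No count test was run on them, since they form a single group.

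From the RPKM values, log2(RPKM + 1) was fitted with limma 3.58.1 in R 4.3.3 (lmFit, eBayes with trend, two-sided) on the 7 gated libraries, with group as the only term, for genes at 1 RPKM or more in at least 3 libraries. Of 33984 transcripts, 24064 genes were formed and 10619 tested. The difference understates the change of low genes. Ratios within gene pairs were compared by exact permutation over libraries. Markers and related genes were counted, with no set test. The gene set, the role groups, the lists, the motifs and the tests were chosen with earlier results of these data known. All 39 genes could be named; related genes were named by smallest p (up to 3 called higher, and up to 3 others not called or lower), and a gene selected by that rule is not reported here. On simulated data for 10619 genes the limma step recovered 55% of changes of log2 size 1 and 100% of size 2, with 5 false calls (3.125% of calls). Only 200 genes were changed there, with independent normal noise whose SD followed the mean level. In the data 27.3% of genes were called and spreads differed between genes, so these rates need not hold for them. Same-numbered libraries of both gates did not deviate together, and the labels give no shared source, so no pairing was used. Alternatives covered scaling (TMM from edgeR 4.0.16 among them), pseudocount, filter, transcript choice, trends over length, GC content and expression level, a replicate block, and each library left out. Leaving out unfractionated libraries or Rn45s was chosen after seeing the data. Promoters and gene coordinates are from RefSeq on GRCm38.p6, and transcript lengths from GENCODE.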

Additional observations from a re-analysis of the deposited data

Results flagged for a closer look

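In groups of 4 libraries, the highest or lowest value was set apart from its neighbour by more of the group's range than Dixon's critical value for 4 samples allows in 5 of 78 groups tested. The nominal rate is 1 in 20 for independent groups. Here the groups share libraries, so the count cannot be set against chance. In FSC-A High these were Cenpk, whose highest library was at 42.7 RPKM while the other 3 lay between 38.6 and 38.97 RPKM, and Mis12, whose highest library, FSC-A High 4, was at 19.2 RPKM while the others lay between 5.34 and 7.33 RPKM. In unfractionated HSCs they were Cenpa, lowest in library 4 at 24.3 CPM per kilobase while the others lay between 166 and 187, Sgol1, lowest in library 4 at 0.0460 while the others lay between 11.9 and 14.03, and Zwilch, highest in library 3 at 10.99 while the others lay between 3.07 and 4.14.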

How the results depend on the processing

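Over 23 alternatives the number of genes called higher ranged from 27 (no filter) to 33, against 32, and the number called lower stayed 0. With the replicate block it was 30 (Nsl1 and Oip5 then had adjusted p of 0.0505 and 0.0829), and with the block and the length and GC trend removed 29. Same-numbered libraries of both gates had correlations of -0.031, 0.059 and 0.00013 in their deviations, so the numbers gave no sign of pairing. Of the 32 genes called, 25 were called under all 22 alternatives fitted for single genes and Ska2 under the 21 in which it was tested, and the exceptions were Oip5, Cenpq, Cenpt, Nsl1, Bub1b and Spdl1. The median log2 difference of 2.19 became 1.90 with library totals as the scale, 1.64 with a pseudocount of 5, 1.87 after removal of the length and GC trend, and 1.68 after that removal with the block. With library totals the median over all genes was -0.31 in place of -0.04, and calls over all genes went from 1657 higher and 1245 lower to 980 and 2285.

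The sign turned for Cenpb with library totals (-0.064), with the block or without FSC-A High 4 (-0.015) and without FSC-A Low 3 (-0.12; -0.12 to 0.50 with 1 library left out), and for Mis12 with library totals (-0.18), with the block or without FSC-A High 4 (-0.25; -0.25 to 0.30 with 1 library left out) and with the block and the length and GC trend removed (-0.13). The difference in the ratio of Ndc80 over Nuf2 turned with a pseudocount of 5 (0.028), and that of Spc24 over Spc25 turned with a pseudocount of 5 (0.11), and with 1 library left out it ranged from -0.29 to 0.26. The cause was not tested in these cases. Depth is an estimate for the gated libraries, and the values give no counting interval.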
